A study of Danio rerio with 4 samples.

Results

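The data described here are the binding intervals of Sox2 and Pou5f1 that lie beside developmental homeobox genes of the Pax, Lhx, Dlx, Nkx, Msx, Emx, Gbx and Barhl families and the sine oculis homeobox family (six1b, six3a and their relatives) in early zebrafish embryos. An interval, or peak, is a stretch of genome listed by the authors as holding more sequenced fragments than its surroundings. Each listed interval carries the accessions of 2 flanking genes. An interval was taken as a member when either flanking gene had a symbol made of pax, lhx, dlx, nkx, msx, emx, gbx, barhl or the sine oculis homeobox stem followed by a digit. By this rule 366 of 22907 intervals in 4 lists were members, and they named 63 genes of the 77 that carry such symbols in the gene name table. The other 14 symbols were named in no list. The share of all genes of the name table that some list names was not calculated. These counts, and those by family or group below, therefore do not show more naming than elsewhere. The distance from an interval to the gene itself was not analysed here, nor was its place in exons, introns or between genes.

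Chromatin immunoprecipitation with sequencing was run on whole embryos, with 1 sample in each of 4 groups. Sox2 was precipitated with an anti-Sox2 antibody from wildtype embryos at late blastula, and Input chromatin came from wildtype embryos of the same stage. Pou5f1-Flag was precipitated with anti-FLAG M2 at late blastula and at the 512-cell stage, from maternal-zygotic spg mutants (MZspg) carrying injected Pou5f1-Flag mRNA. The injection was made at the 1-cell stage, with a dose chosen to be barely enough for rescue of the mutant. The Pou5f1-Flag lists thus come from another genotype than the Sox2 and Input lists, and the tagged protein was supplied by mRNA from outside. Chromatin was fixed with 1% paraformaldehyde, and nuclei were pooled, 20000000 at late blastula and 2000000 at the 512-cell stage. No difference between lists has a replicate check, so no p-value is given, and stage and the number of nuclei cannot be told apart.

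Homeobox genes encode transcription factors that bind DNA through a homeodomain and give cells their regional identity. Pax proteins add a paired domain, Lhx proteins carry LIM domains that bind cofactors, and sine oculis homeobox proteins work with Eya cofactors. Dlx, Msx, Emx, Gbx, Nkx and Barhl genes are used to pattern the forebrain, the hindbrain, the neural plate border, the placodes and the pharyngeal arches. Sox2 and Pou5f1 are transcription factors of uncommitted embryonic cells, and many of the genes described here act later, when organs form.

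The Sox2 list held 132 members among 6129 intervals, the Pou5f1-Flag lists 102 among 7130 at late blastula and 114 among 7747 at the 512-cell stage, and Input 18 among 1901. None of the 132 Sox2 members overlapped an Input interval, which allows a share of up to 2.27%, against 3.34% of the whole Sox2 list. None of the 102 late blastula Pou5f1-Flag members did either, which allows up to 2.94%, against 6.45% of that list. In the 512-cell list 2 of 114 members overlapped Input (1.75%, exact 95% interval 0.213 to 6.19), against 2.25% of the list. These limits and intervals cover counting error alone. Intervals with no Input overlap are called Input-free below, and no Input-free member of any ChIP list lay within 10 kb of an Input interval. Over the whole lists, 2.23% of Input-free Sox2 intervals lay that near, as did 4.18% and 1.25% of the Pou5f1-Flag intervals at late blastula and at the 512-cell stage.

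Both 512-cell members on Input lay beside genes that neither late blastula ChIP list named. The interval at pax1a, a gene of the sclerotome and pharyngeal pouches, held 340 reads (chromosome 17, 42722790 to 42723296). It fell in a stretch where the Input list names pax1a beside 12 intervals of 34 to 721 reads. The interval at dlx4b, a gene of the preplacodal region, held 324 reads (chromosome 12, 6039202 to 6039757), and dlx4b had no Input-free interval in any list, whereas pax1a had 512-cell ones of 67, 42 and 39 reads. The Input list further named pax3a beside 4 intervals (78 to 381 reads), lhx4 beside 1 (46 reads) and pax7a beside 1 (41 reads). The median Input member held 74.5 reads and the median Input interval 72.

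Input-free members made up 2.23% of the Sox2 list (132 of 5924, exact 95% interval 1.87 to 2.64). In the late blastula Pou5f1-Flag list they made up 1.53% (102 of 6670, 1.25 to 1.85), and in the 512-cell list 1.48% (112 of 7573, 1.22 to 1.78). The share was thus higher in the Sox2 list than in either Pou5f1-Flag list, and nearly the same in the Pou5f1-Flag lists. The 95% intervals of Sox2 and late blastula Pou5f1-Flag only just miss each other (1.87 against 1.85). They assume independent members, whereas emx2 and msx1b alone gave 10 Sox2 members each. With 1 sample per list, the difference was not tested. With the 20 further 512-cell intervals that lie in late blastula spans of members but name other genes, described below, the 512-cell share was 1.74% (132 of 7573, 1.46 to 2.06), and its interval overlapped that of Sox2. The Input list held the lowest share, 0.947% (0.562 to 1.49), which came from 4 genes.

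Of the 63 member genes, 43 were named beside an Input-free Sox2 interval (68.3%, exact 95% interval 55.3 to 79.4), where 51.2% of all 9679 genes named in any list were. The late blastula Pou5f1-Flag list named 40 (63.5%, 50.4 to 75.3) against 54.1% of all genes. The 512-cell list named 51 (81.0%, 69.1 to 89.8) against 72.4%. Input named 4 (6.35%) against 9.39%. The share of all genes lay below the members' interval for Sox2 and inside it for both Pou5f1-Flag lists. The order of the lists depends on the authors' threshold. With intervals at a false discovery rate of at most 1% alone, Sox2 named 40 members, late blastula Pou5f1-Flag 32 and the 512-cell list 18, so the 512-cell list went from most to fewest. The same threshold left 44.4%, 37.7% and 20.8% of all genes.

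A total of 27 member genes had Input-free intervals in all 3 ChIP lists (42.9%, 30.5 to 56.0), and 24.9% of all genes did. They include every Emx gene and both Gbx genes, together with barhl1a, barhl2, lhx1a, lhx2b, lhx5, msx1a, msx1b, nkx2.1, pax2a, pax3a, pax6a, pax9, six3a and six3b. A single ChIP list named 17 members (27.0%), against 44.5% of all genes. The 512-cell list was that single list for 13 of the 63 members, late blastula Pou5f1-Flag for 3 and Sox2 for 1. The same lists alone named 27.5%, 9.06% and 7.98% of all genes. Neighbouring members can be named by the same interval, so genes are not independent counts.

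**Figure D1:**
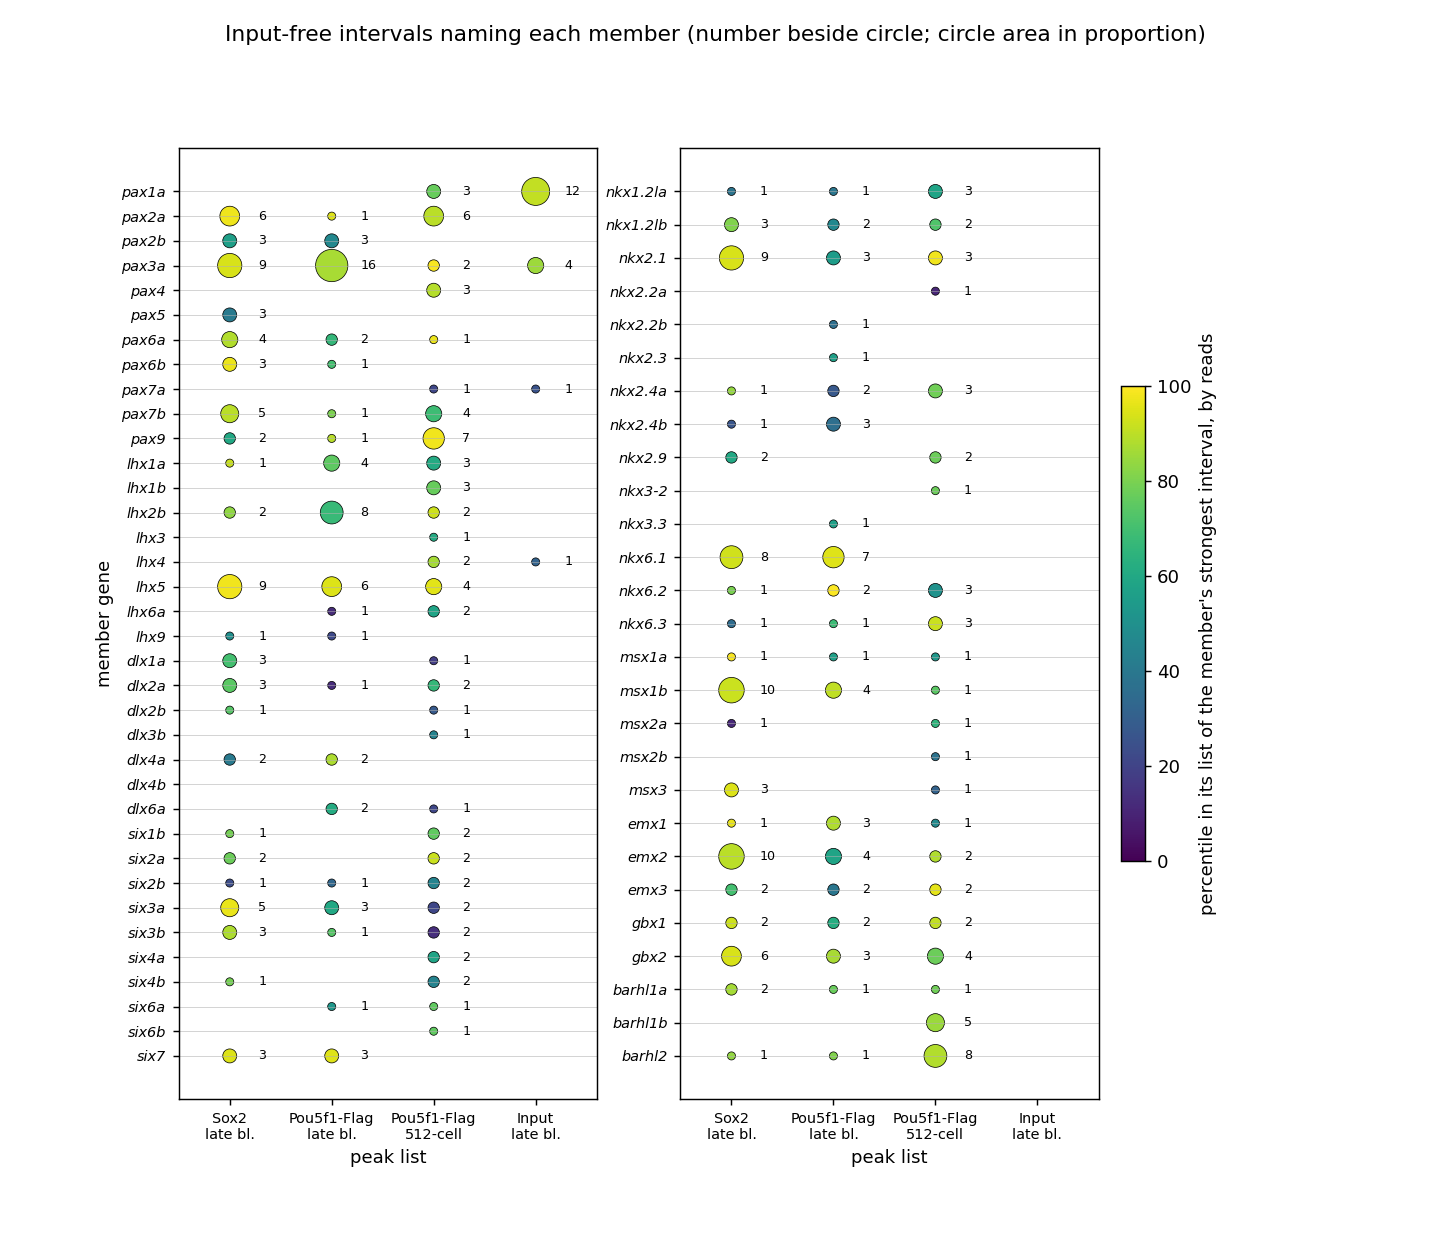
Input-free intervals of the 3 ChIP lists, and the intervals of the Input list, naming each member gene (rows, grouped by family; columns are lists). The number beside a circle and its area give the count of intervals, and the colour gives the percentile of the strongest one by reads within its list. The column for 512-cell Pou5f1-Flag has the most filled positions (51 genes), and pax3a has the most intervals (27 over the 3 lists).

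Strength was read from the authors' count of reads in each interval, ranked within a list, since reads of different lists are not on a common depth. A percentile of 100 is the strongest interval of a list. The Sox2 members held 21 to 444 reads with a median of 74, against 62 for all Input-free Sox2 intervals, and their median percentile was 59.2. Late blastula Pou5f1-Flag members held 15 to 273 reads with a median of 38.5 against 39.5, at a median percentile of 47.9. At the 512-cell stage they held 30 to 202 reads with a median of 53 against 52, at a median percentile of 53.4. The members therefore sat above the middle of the Sox2 list and near the middle of the other lists.

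Among the strongest 10% of the Input-free Sox2 intervals were 19 of the 132 members (14.4%, 8.89 to 21.6), beside 10.0% of all. The late blastula Pou5f1-Flag members had 8 there (7.84%, 3.45 to 14.9) beside 10.1%, and the 512-cell members 12 (10.7%, 5.66 to 18.0) beside 9.94%. All 3 intervals contain the share over the whole list.

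**Figure D2:**
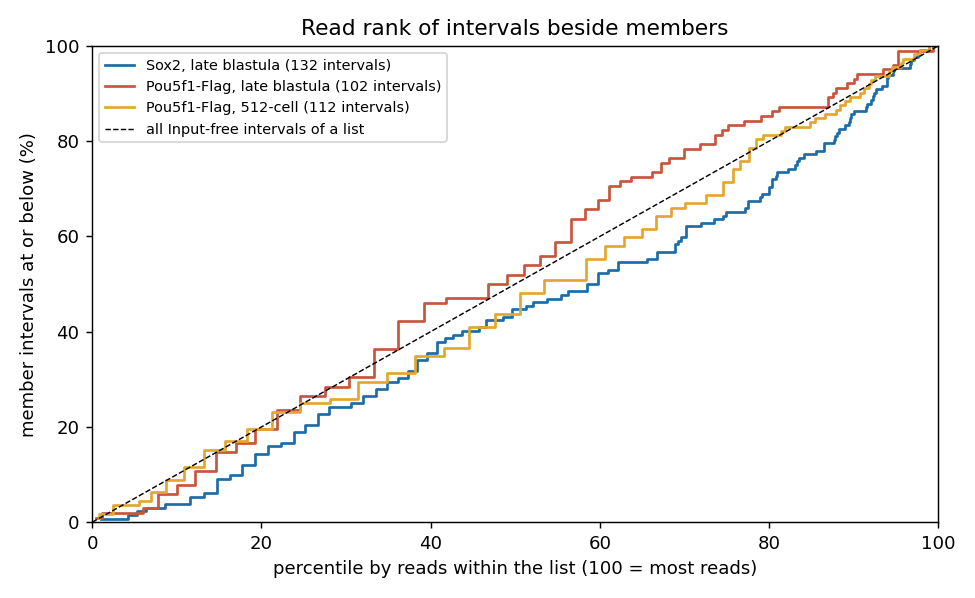
Cumulative percent of member intervals (y axis) against their percentile by reads within a list (x axis, 100 is the strongest), for the 3 ChIP lists. The dashed line is the whole list. The Sox2 line runs below it over nearly the whole range, with a median percentile of 59.2. The late blastula Pou5f1-Flag line rises above it in the upper part of the range (median 47.9), and the 512-cell line stays closer to it (median 53.4).

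The strongest Sox2 member lay beside msx1a, a gene of the neural plate border and its crest. It held 444 reads (chromosome 14, 167278 to 167871), and the late blastula Pou5f1-Flag list had 43 reads there. The next was at lhx5, a forebrain gene, with 371 reads. The third, at pax2a, a gene of the midbrain-hindbrain boundary and the ear, held 348 reads (chromosome 13, 29869660 to 29870313), with 119 late blastula Pou5f1-Flag reads. These 3 positions rank high for Sox2, yet msx1a is near the middle of the Pou5f1-Flag list and pax2a near its top.

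At pax6b, a gene of the eye and pancreas, the strongest Sox2 interval held 327 reads. At six3a, a forebrain and eye gene, it held 318 reads (chromosome 13, 9828000 to 9828504) and overlapped neither Pou5f1-Flag list. The interval between noto and emx1, a gene of the telencephalon, held 316 reads (chromosome 13, 14843549 to 14844113) and 85 for late blastula Pou5f1-Flag. Sox2 alone was thus listed at this six3a interval, and both factors at the emx1 interval. Other six3a intervals were shared. Sox2 had 92 reads and late blastula Pou5f1-Flag 34 at 9885005 to 9885449. At 9826536 to 9827017 Sox2 had 62 reads and the 512-cell list 106. The msx3 interval held 264 Sox2 reads (chromosome 13, 24874362 to 24875215) and was in no other list. The six7 interval, beside an eye and forebrain gene, held 261 Sox2 reads (chromosome 7, 8269395 to 8270004) and overlapped 2 late blastula Pou5f1-Flag intervals of 120 and 92 reads. Of these 8 Sox2 positions 6 were shared with late blastula Pou5f1-Flag, the exceptions being six3a and msx3. In the strongest 10% of the Sox2 list, 15 of 19 members were shared in this way (78.9%, 54.4 to 93.9), beside 73.9% of all intervals there, a share inside the members' interval.

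A single member stood far ahead of the rest in the late blastula Pou5f1-Flag list. It lay between nkx6.2, a gene of the ventral neural tube, and sncb, with 273 reads (chromosome 13, 53117312 to 53117817), and neither other ChIP list had it. The nearest Sox2 interval was 101622 bp away. The next members held 120 reads at six7, 119 at pax2a, 119 at nkx6.1, 115 and 107 at lhx5, 93 at msx1b and 92 at six7. All of those 7 intervals overlapped a Sox2 interval. In this list the highest count was thus at a position without Sox2, and the next 7 were at positions with it. This contrast depends on the authors' filter. The nkx6.2 interval had a Wilcoxon filter p of 0.0214, so a limit of 0.01 leaves it out, although its false discovery rate was 4.34e-50%. The six7 interval of 92 reads, at 0.0101, is left out too. Late blastula Pou5f1-Flag members of 500 to 510 bp, nkx6.2 among them, numbered 3, and 136 of all 6670 Input-free intervals had such a length. None of the 3 overlapped Sox2 or the 512-cell list. Over the whole list 30.9% overlapped Sox2 and 14.1% the 512-cell list. With only 3 intervals, less sharing is not shown. The intervals of 115 and 107 reads at lhx5, and those of 120 and 92 at six7, each cover the same place, 1 in each of the 2 passes that the list makes through the chromosomes.

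At the 512-cell stage the strongest Input-free member lay between pax3a, a gene of the dorsal neural tube and neural crest, and scg2b. It held 202 reads (chromosome 2, 47682950 to 47683760), with 58 late blastula Pou5f1-Flag reads and no Sox2 interval. Next was the interval between pax9 and nkx2.1 with 171 reads (chromosome 17, 38422065 to 38422591), which overlapped a Sox2 interval of 75 reads. The pax6a interval held 155 reads (chromosome 25, 15229876 to 15230450) and overlapped 2 late blastula Pou5f1-Flag intervals of 50 and 27 reads. In these 3 cases the 512-cell interval was shared with a single further list, with late blastula Pou5f1-Flag at pax3a and pax6a and with Sox2 at pax9. The naming rule leaves out 512-cell intervals of 200 reads at an lhx5 locus and 197 at the lhx1a locus. Those name other genes, and both overlapped Sox2 and late blastula Pou5f1-Flag.

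The emx3 interval, beside a telencephalon gene, held 137 512-cell reads and was in no other list. Lhx5 followed with 135, pax3a with 124 and pax9 with 122, where late blastula Pou5f1-Flag had 89. The lhx2b interval, beside an eye and forebrain gene, held 110 reads and was unshared. Of the 8 strongest 512-cell members, 6 were found again in at least 1 late blastula list. Among the strongest 10% of the list this held for 9 of 12 members (75.0%, 42.8 to 94.5) and for 50.5% of all intervals, a share inside the members' interval.

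Sharing meant an overlap of at least 1 bp with another list. Of the Sox2 members 31 of 132 overlapped a late blastula Pou5f1-Flag interval (23.5%, 16.5 to 31.6), beside 28.0% of all Input-free Sox2 intervals. A 512-cell interval was overlapped by 12 (9.09%, 4.79 to 15.3), beside 9.28%. Both were overlapped by 7 (5.3%), beside 6.28%. The Sox2 members were therefore shared about as often as the list they come from, within counting error.

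Read from the other side, 37 of 102 late blastula Pou5f1-Flag members overlapped Sox2 (36.3%, 27.0 to 46.4), beside 30.9% of that list. Overlap with the 512-cell list was found for 19 (18.6%, 11.6 to 27.6), beside 14.1%, and with both for 10 (9.8%), beside 7.69%. Of the 112 512-cell members 6 overlapped Sox2 (5.36%, 1.99 to 11.3), beside 7.32%, and 11 overlapped late blastula Pou5f1-Flag (9.82%, 5.01 to 16.9), beside 10.2%. Both overlaps held for 3 (2.68%), beside 4.94%. For the overlaps with a single list the share of the whole list lay inside the members' interval in every case. By the naming rule, the 512-cell counts leave out 20 intervals in late blastula spans of members that name other genes, described below. Of those 20, 6 overlapped Sox2 and 4 late blastula Pou5f1-Flag.

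Where Sox2 and late blastula Pou5f1-Flag members coincided, their centres were close, with a median of 47 bp and a range of 1 to 266.5 bp over the 31 Sox2 members, against a median of 33 bp over all such Sox2 intervals. The shared Sox2 members held a median of 168 reads and the unshared ones 62, where the whole list had 111 and 53. Late blastula Pou5f1-Flag members held a median of 46 reads with Sox2 and 34 without. At the 512-cell stage the 11 members with late blastula Pou5f1-Flag held a median of 107 reads and the others 52. In each of these comparisons the shared members had the higher median, as did shared intervals over the whole lists.

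The distance from unshared members to the nearest interval of another list differed from list to list. Of the 101 Sox2 members without late blastula Pou5f1-Flag overlap, 30 had such an interval within 10 kb (29.7%), beside 23.0% of all, and the median gap was 29.9 kb against 55.3 kb. Of the 106 512-cell members without Sox2 overlap, 20 had a Sox2 interval within 10 kb (18.9%), beside 10.5%, at a median gap of 49.6 kb against 106 kb. Of the 65 late blastula Pou5f1-Flag members without Sox2, 11 had a Sox2 interval within 10 kb (16.9%), beside 16.7% of all. Their counterparts without 512-cell overlap lay a median of 73.0 kb from the nearest 512-cell interval, against 48.4 kb, the opposite order.

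When overlapping intervals were joined, the members formed 293 loci of 16960. All 3 ChIP lists met at 7 of them (2.39%, 0.966 to 4.86), beside 2.21% of all loci. Sox2 and late blastula Pou5f1-Flag alone met at 24 (8.19%, beside 7.51%), the Pou5f1-Flag lists alone at 8 (2.73%, beside 2.3%), and Sox2 and 512-cell Pou5f1-Flag alone at 5 (1.71%, beside 1.04%). Sox2 alone was at 96 loci (32.8%, 27.4 to 38.5), beside 24.1% of all loci. Late blastula Pou5f1-Flag alone was at 55 (18.8%, 14.5 to 23.7), beside 23.8%, and the 512-cell list alone at 98 (33.4%, 28.1 to 39.2), beside 39.0%. The share over all loci was thus below the members' interval for Sox2 alone, just above it for late blastula Pou5f1-Flag alone, and inside it for the 512-cell list. The 44 shared loci belonged to 28 of the 63 genes, so 35 genes had no shared locus. Among those 35, dlx4b had no Input-free interval at all. The same share over all genes was not calculated, so these counts do not show more or less sharing than elsewhere.

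The first of the loci in all 3 lists was at lhx5 (chromosome 21, 14129954 to 14130629), with 371 Sox2 reads, 115 late blastula Pou5f1-Flag reads and 200 512-cell reads. A second at lhx5 (chromosome 21, 14132452 to 14132918) held 151, 54 and 135 reads in the same order. The gene lhx5 was the only member with 2 such loci. At pax3a (chromosome 2, 47574978 to 47575507) the reads were 246, 66 and 124. At pax6b (chromosome 7, 16642060 to 16642605) they were 327, 54 and 118.

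The locus at lhx1a, an organizer and kidney mesoderm gene, held 206, 33 and 197 reads (chromosome 15, 27058035 to 27058707). The locus at nkx2.1, a gene of the hypothalamus and thyroid, held 249, 28 and 101 reads (chromosome 17, 38495162 to 38495708). At both, Sox2 and 512-cell Pou5f1-Flag reads ranked high in their lists, and the late blastula Pou5f1-Flag reads were below the median of the members. At nkx6.3 the 3 lists held 48, 52 and 107 reads (chromosome 8, 39456821 to 39457246), the lowest Sox2 count of the 7.

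The lists do not always give the same gene name to a shared locus. Of the 44 shared loci, 37 were named for a member by every list that had them, and 7 were not. At 6 of the 7 it was the 512-cell list that named other genes, and at 1 the late blastula Pou5f1-Flag list. Among the 7 loci in all 3 lists, the 512-cell list gave no member at 4. It named gnrh2 and NM_001003568 at the lhx5 locus of 371 Sox2 reads, igf1rb and elp4 at pax6b, brip1 and dhrs13a.3 at lhx1a, and mbip and sptb at nkx2.1. Membership at the 512-cell stage is therefore incomplete by the rule. Inside the stretches spanned by the late blastula intervals of 8 members, 20 further 512-cell intervals of 33 to 200 reads (median 56) named no member. Of the 11 members named at late blastula but not in the 512-cell list, pax6b alone had such an interval.

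**Figure D3:**
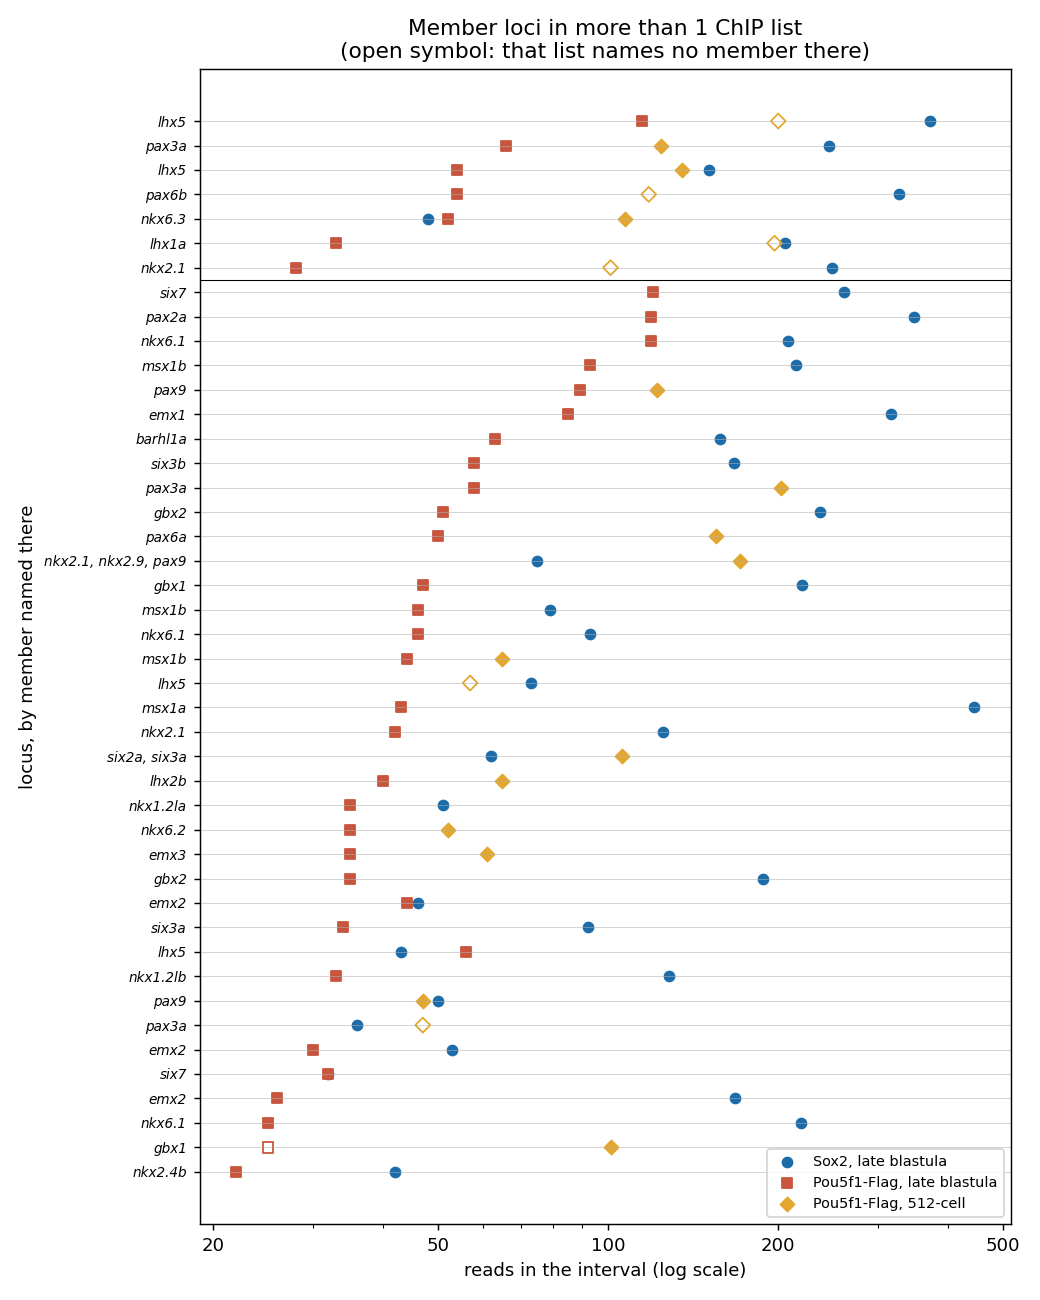
Reads on a log axis at the 44 member loci found in more than 1 ChIP list, 1 row per locus, with a symbol for each list that has it. An open symbol marks a list that names no member there. The 7 rows above the line are in all 3 lists, and 4 of them have an open 512-cell symbol.

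Some members gathered many intervals. The median member gene had 4 Input-free intervals over the 3 ChIP lists (0 to 27), and the median of all genes was 2 (0 to 156). The length of genome that a gene flanks is not given in the lists, and its part in these counts was not tested. The gene pax3a had the most, with 9 Sox2, 16 late blastula Pou5f1-Flag and 2 512-cell intervals over 1390 kb. Within that stretch the 512-cell list had 7 further intervals, of up to 126 reads, that name other genes. The late blastula lists place the space between gpc1b and pax3a next to pax3a, whereas the 512-cell list sets acsl3b inside it. The Sox2 intervals held 36 to 246 reads, and those of late blastula Pou5f1-Flag 24 to 82. The Pou5f1-Flag intervals of 66 and 43 reads cover the same place, 1 in each pass of that list. Around the locus shared by all lists, 6 of the 9 Sox2 intervals lay between 47574978 and 47590496 on chromosome 2.

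The gene lhx5 had 9 Sox2 intervals of 41 to 371 reads, 6 late blastula Pou5f1-Flag intervals of 39 to 115 reads and 4 512-cell intervals of 39 to 135 reads. Within the stretch these span, 3 further 512-cell intervals, of up to 200 reads, name other genes. All 9 Sox2 intervals lay between 14110286 and 14179206 on chromosome 21, and 3 of them overlapped late blastula Pou5f1-Flag. The Pou5f1-Flag intervals of 115 and 107 reads cover the same place, as do those of 54 and 39, 1 in each pass of that list. The gene emx2, of the dorsal telencephalon, had 10 Sox2 intervals of 34 to 182 reads, 4 late blastula Pou5f1-Flag intervals of 26 to 44 reads and 2 512-cell intervals of 89 and 60 reads. Its strongest Sox2 intervals, of 182, 169 and 168 reads, lay between 19638584 and 19866924 on chromosome 13. Those between 19367161 and 19380209, where the flanking name changes from eif3s10 to fam204a, held 36 to 53 reads. Sox2 thus had the most intervals at lhx5 and emx2, and late blastula Pou5f1-Flag at pax3a.

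The gene msx1b had 10 Sox2 intervals, of which 9 lay on its lower-coordinate side between 49825008 and 49859215 on chromosome 1. Those 9 held 37 to 215 reads, and 1 of them overlapped a late blastula Pou5f1-Flag interval, of 93 reads. The paralogue msx1a had a single Sox2 interval, the strongest of all members. The gene nkx2.1 had 9 Sox2 intervals of 41 to 249 reads, 3 late blastula Pou5f1-Flag intervals of 42, 36 and 28 reads and 3 512-cell intervals of 171, 74 and 46 reads. Within the stretch these span, 3 further 512-cell intervals, of up to 101 reads, name other genes.

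The gene nkx6.1, of motor neuron and pancreas progenitors, had 8 Sox2 intervals of 33 to 223 reads and 7 late blastula Pou5f1-Flag intervals of 17 to 119 reads. The 512-cell list had no interval in the 105 kb that these span, and the nearest was at least 252711 bp away. The Pou5f1-Flag interval of 119 reads and 1 of 43 reads cover the same place, 1 in each pass of that list. Of all 9679 genes, 889 (9.18%) were named by both late blastula ChIP lists and not by the 512-cell list. Of the 63 members 7 were, and nkx6.1 is 1 of these. Of the others, pax6b alone had a 512-cell interval inside its span, and six7, pax2b and lhx9 had none in 28.1, 375 and 262 kb. With a single 512-cell sample of fewer nuclei, this says only that none was listed.

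The gbx2 intervals differ from the above in strength. This gene of the anterior hindbrain had 6 Sox2 intervals of 248, 237, 188, 184, 119 and 114 reads, so every one held more than the median of the members. Late blastula Pou5f1-Flag had 82, 51 and 35 reads there, and the 512-cell list 68, 59, 57 and 30. The intervals of 51 and 35 reads overlapped Sox2, while none of the 512-cell intervals did.

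**Figure D4:**
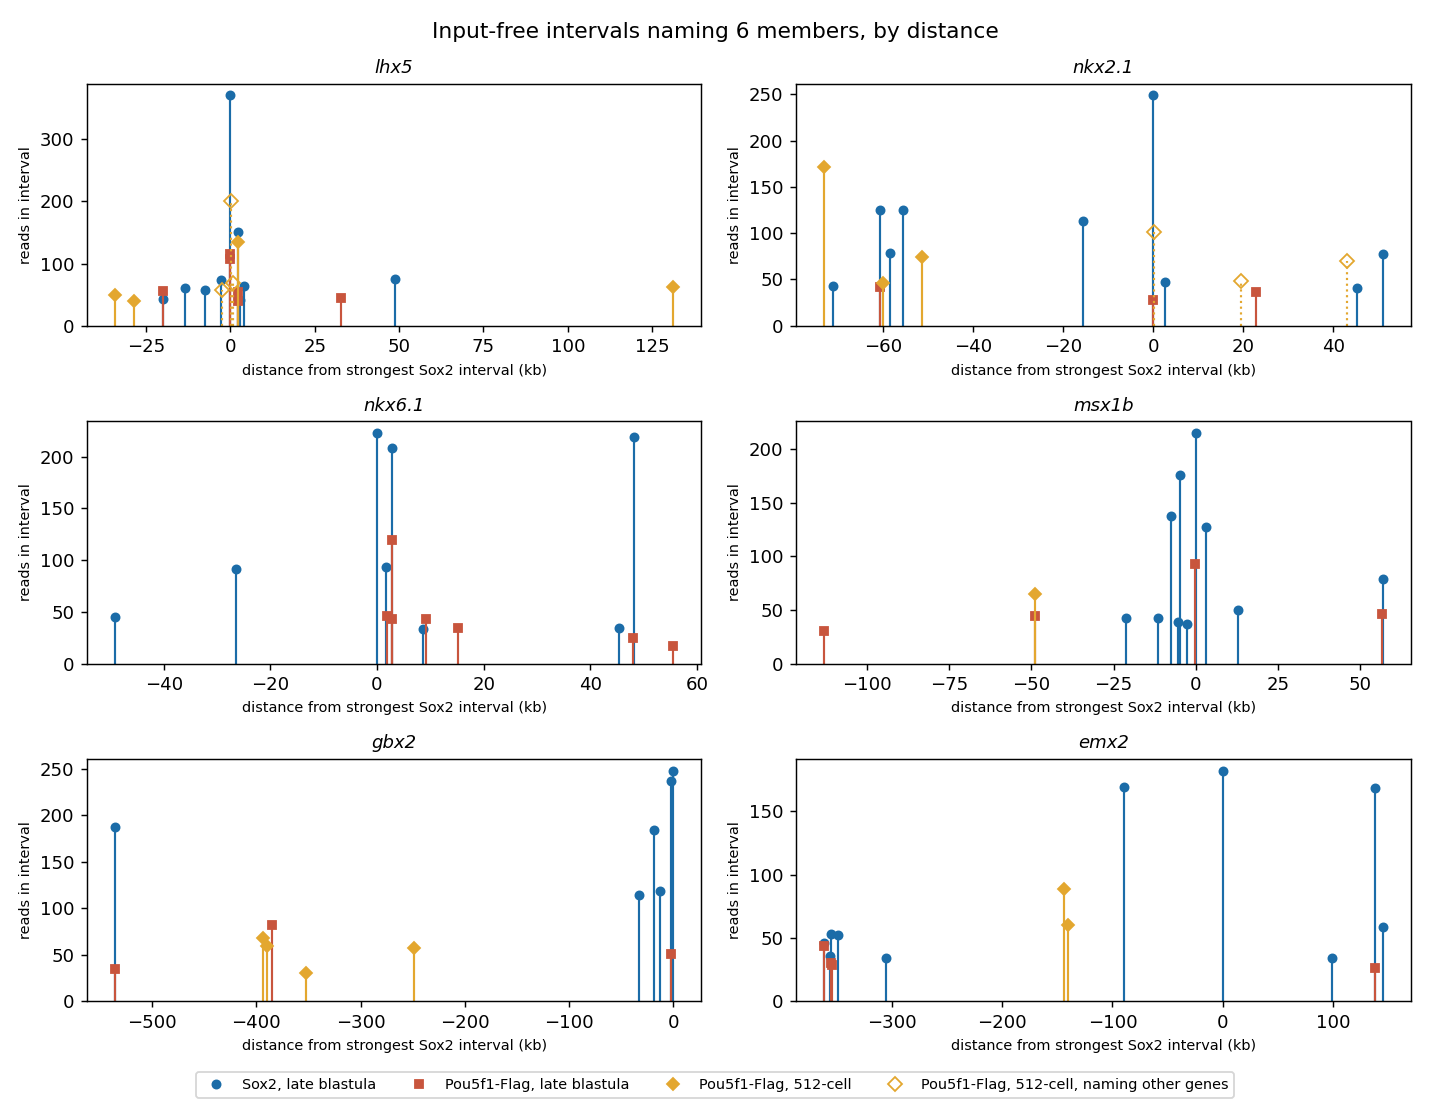
Reads of each interval (y axis) against distance in kb from the strongest Sox2 interval (x axis) beside lhx5, nkx2.1, nkx6.1, msx1b, gbx2 and emx2, coloured by list. Open diamonds are 512-cell intervals that name other genes. The nkx6.1 panel has no 512-cell interval, and in the lhx5 panel 512-cell intervals with other names lie close to the strongest Sox2 interval.

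The families were represented unevenly. In the Pax family 11 of 15 genes were named in some list, 8 by Sox2, 7 by late blastula Pou5f1-Flag and 8 at the 512-cell stage, with 35, 25 and 27 Input-free intervals. The Nkx family had 14 of 17, with 9, 11 and 9 genes and 26, 22 and 21 intervals. The Lhx family had 8 of 11, with 4, 5 and 7 genes and 13, 20 and 17 intervals. The sine oculis homeobox family had 10 of 13, with 7, 5 and 9 genes and 13, 9 and 14 intervals. The lists name 51.2%, 54.1% and 72.4% of the 9679 genes named in any list. Their like base is thus the named genes of each family (11, 14, 8 and 10), not all genes of its symbol. No difference between families was tested.

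All 5 Msx genes, all 3 Emx genes, both Gbx genes and all 3 Barhl genes were named. Msx and Emx genes had more Sox2 intervals (15 and 13) than late blastula Pou5f1-Flag (5 and 9) or 512-cell intervals (5 and 5). Most of these Sox2 intervals came from 1 gene in each family, msx1b with 10 and emx2 with 10. The other Emx genes did not share this order against late blastula Pou5f1-Flag. There emx1 had 1 Sox2 and 3 Pou5f1-Flag intervals, and emx3 had 2 and 2. Barhl genes, of diencephalic and retinal neurons, had 3 Sox2, 2 late blastula and 14 512-cell intervals. The 512-cell count came from barhl2 with 8 intervals of 33 to 91 reads, barhl1b with 5 of 36 to 81 reads and barhl1a with 1 of 69 reads. Within the stretch that the barhl1b intervals span, 3 Sox2 intervals of up to 66 reads name other genes, so the Sox2 count depends on naming. None of the 14 512-cell intervals overlapped a late blastula interval of either factor. Of all Input-free 512-cell intervals, 7.32% overlapped Sox2 and 10.2% late blastula Pou5f1-Flag. Where no overlap was found the limit is 3 counts, and 3 of 14 lies above both shares. Less sharing than in the whole list is thus not shown. The 8 Gbx intervals of Sox2 had a median percentile of 89.8, the highest of the families.

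The Dlx genes act in the ventral forebrain, the placodes and the pharyngeal arches. Of 8 genes 7 were named, with 7 Sox2, 5 late blastula Pou5f1-Flag and 6 Input-free 512-cell intervals, and the strongest held 105, 84 and 59 reads. No Input-free Dlx interval overlapped one of another ChIP list. Over the whole lists, 28.0% of Sox2 intervals overlapped late blastula Pou5f1-Flag, and 30.9% of late blastula Pou5f1-Flag intervals overlapped Sox2. Of 512-cell intervals, 10.2% overlapped late blastula Pou5f1-Flag. With the limit of 3 counts where no overlap was found, 3 of 7, 3 of 5 and 3 of 6 lie above these shares. Less sharing at Dlx genes is thus not shown. At dlx4a the Sox2 intervals of 53 and 40 reads lay near the Pou5f1-Flag intervals of 84 and 42 reads, with a shortest gap of 650 bp. At dlx1a and dlx2a, 2 Sox2 intervals of 51 and 36 reads lay between the neighbouring genes, which the list names on either side.

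Grouped by where the genes are known to act, 19 of 20 eye and forebrain genes were named in some list, and 16, 17 and 15 of them had intervals of Sox2, of late blastula Pou5f1-Flag and of the 512-cell list. Of 26 genes of the placodes, neural border and neural crest 22 were named, and 16, 11 and 19 had such intervals. Of 14 genes of mesoderm, endoderm and heart 11 were named, with 4, 6 and 8. All 3 lists named 12, 8 and 3 genes of these groups. Of the 9679 genes named in any list, 51.2%, 54.1% and 72.4% were named by the lists in that order, and 24.9% by all 3. The like base is the named genes of each group (19, 22 and 11). The groups are rough. Each gene was placed in at most 1 group, and 11 named members were placed in none. For example, the group of mesoderm, endoderm and heart holds nkx6.2, a gene of the ventral neural tube, and nkx6.1, also of motor neuron progenitors. The group of placodes, neural border and neural crest holds gbx2, a gene of the anterior hindbrain. No difference between the groups was tested.

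Pairs of duplicated genes were compared where both copies were named in some list, which left 16 pairs. Pairs with a copy named in no list, such as pax3a and pax3b, were left out. Of the 16 pairs Sox2 named both copies in 8, late blastula Pou5f1-Flag in 6 and the 512-cell list in 11. In 6 of the 16 Sox2 named exactly 1 copy. The same shares over other gene pairs were not calculated. Thus pax7b had 5 Sox2 intervals with up to 185 reads and pax7a none, and lhx1a had 1 of 206 reads and lhx1b none. The copy that Sox2 did not name was not always without Pou5f1-Flag, since lhx1b had 3 512-cell intervals and barhl1b 5. Within the stretches those intervals span lay Sox2 intervals that name other genes. These were 1 of 34 reads at lhx1b and 3 of up to 66 reads at barhl1b. For pax2a the lists held 6, 1 and 6 intervals, and for pax2b 3, 3 and 0.

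Among members named by a single ChIP list, pax4, a gene of pancreatic islets in mouse, had 512-cell intervals of 93, 70 and 44 reads. The stretch they span also held 3 Sox2 intervals of up to 296 reads that name other genes. It held 4 such late blastula Pou5f1-Flag intervals, of up to 60 reads. The next member named by the 512-cell list alone was lhx4, a pituitary and motor neuron gene, with 85 and 48 reads. For late blastula Pou5f1-Flag a single interval of 43 reads lay between nkx3.3 and nkx2.3, a gene of pharyngeal endoderm and heart, and 1 of 34 reads beside nkx2.2b. For Sox2 only pax5 was of this kind, a midbrain-hindbrain boundary gene with intervals of 53, 35 and 30 reads. The pax5 intervals were all below the Sox2 members' median of 74 reads.

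Several intervals lay between 2 members. Besides the pair at dlx1a and dlx2a, Sox2 had 114 and 56 reads between six2a and six3a, 120 reads between six4b and six1b, 75 between pax9 and nkx2.9 and 43 between nkx2.9 and nkx2.1. The 512-cell list had 66 reads between six1b and six6b, 46 between pax9 and nkx2.9 and 38 between six2a and six3a. Each such interval was counted once as an interval and once for each gene.

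Other genes of the same circuits were listed for comparison. Of 17 cofactor genes (Eya and Dach genes, LIM-domain binding genes and LIM-only genes) 14 were named, 11 by Sox2 (78.6%), 10 by late blastula Pou5f1-Flag (71.4%), 9 at the 512-cell stage (64.3%) and 1, lmo4b, by Input (7.14%). Of all genes these lists named 51.2%, 54.1%, 72.4% and 9.39%. The strongest intervals lay between eya1 and xkr9 in the late blastula Pou5f1-Flag list (398 reads) and beside lmo4a for Sox2 (309 reads). Of 27 other homeobox genes of eye, placodes and midbrain 19 were named, 11 by Sox2 (57.9%), 8 by late blastula Pou5f1-Flag (42.1%) and 16 at the 512-cell stage (84.2%), against the same shares of all genes. The strongest lay beside tlx2 for Sox2 (468 reads), a gene also named by Input, and beside isl2a at the 512-cell stage (236 reads).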

How the data were processed

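Each group held 1 sample, and the authors deposited 1 peak list per sample. Per the file headers, each interval has a count of reads (total, forward and reverse), a p-value called a Wilcoxon filter, a false discovery rate as a percent, and a normalized difference. By recalculation the last is the fraction of reads by which forward and reverse differ in the deposited interval. The submitters' processing notes name CASAVA. No aligner, caller or threshold is given in the sources used here. Per the series' design text, Pou5f1 was run in technical duplicates, with no stage named. Library totals were not analysed here, so depth is unknown and reads were compared within lists.

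Coordinates are Zv9, as named in the late blastula identifiers. The 512-cell list names no build, and the same was assumed. Starts were changed to count from 1. Accessions were matched to symbols through a RefSeq table of assembly GRCz12tu, used for names alone (94.5% matched in the Sox2 list, 95.1% and 95.6% in the Pou5f1-Flag lists of late blastula and the 512-cell stage, 92.0% in Input). The late blastula Pou5f1-Flag list makes 2 passes through the chromosomes (1217 and 5913 intervals, with 13 and 89 members). Both were kept, so some places count more than once.

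Overlap needed 1 bp, and this step was tested on simulated intervals. Shares have exact (Clopper-Pearson) 95% intervals over intervals or genes, which assume independence and cover counting error only. A count of 0 was given the limit of 3 counts. Python 3.11.15, pandas 2.3.3, numpy 2.4.6, scipy 1.17.1 and matplotlib 3.10.9 were used. Members described singly were those with the 8 strongest Input-free intervals of each ChIP list, loci in all 3 lists, the 6 genes with most intervals (nkx2.1, nkx6.1 and msx1b tie), genes on Input and the strongest 2 genes of a single list. Others, such as gbx2, barhl2 and the paralogues, were chosen after their values were seen. The members, gene lists and rules were chosen with earlier results of these data known. Alternatives varied the Input filter, the authors' thresholds, the minimum overlap, merging of repeated places, the strength measure and the naming rule.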

Additional observations from a re-analysis of the deposited data

How the results depend on the processing

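Of 69 alternative values 61 stayed close to the reported ones, within 1.5 times for counts and within a 95% interval for shares and median percentiles. Some of the 61 could not have moved. No Sox2 or late blastula Pou5f1-Flag member overlapped Input, so restoring Input-overlapping intervals could not change their counts of members or genes. At a false discovery rate of at most 1%, the Pou5f1-Flag lists held 55 members at late blastula and 18 at the 512-cell stage. Those are 53.9% and 16.1% of their members, beside 58.1% and 17.0% of all Input-free intervals of these lists. Input then held 11 members. The 512-cell list named 18 genes and so the fewest of the 3 ChIP lists (Sox2 40, late blastula Pou5f1-Flag 32). Of the 18 512-cell members 16.7% overlapped Sox2, and no whole-list share at this threshold is given. A Wilcoxon filter p of at most 0.01 left 2 Input members, and Input intervals above their list's median reads named 2 genes. Loci in all 3 ChIP lists numbered 3 when each list had to name a member. Counting 512-cell intervals that lie within late blastula spans of a member, an alternative chosen after seeing the data, gave 132 in place of 112, and the 512-cell share then overlapped that of Sox2 in its 95% interval.

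No paired analysis was possible because each group has 1 sample. The lists also differ in genotype, antibody and, at the 512-cell stage, in nuclei, and these cannot be told apart from factor and stage. The lists hold no value for places that were not called, so an interval listed once is not shown to be absent elsewhere. The cause of the changes with the threshold was not tested.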
